A study of Mus musculus with 10 samples.

Results

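*Col10a1*, the gene of collagen X, was followed in single cells of mouse knee and hind limb that carried a *Grem1*-lineage or a *Lepr*-lineage label. It is 1 of 29183 genes read in the *Grem1*-lineage table and 1 of 50508 in the *Lepr*-lineage table. Collagen X is a short-chain, network-forming collagen of cartilage. It is the classical product of hypertrophic chondrocytes, the enlarged cells at the base of the growth plate (GP) whose matrix mineralises before bone replaces it. It is also made near mineralised cartilage of the joint and in osteoarthritic cartilage, and RUNX2, MEF2C and AP-1 factors are among its known activators.

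The cells came from C57BL/6 hind limbs. *Grem1*-TdT mice carry a tamoxifen-inducible *Grem1*-creERT driver and a Rosa-TdTomato reporter. They were aged 5 to 6 weeks when tamoxifen chow began and received it for 2 weeks, and TdTomato-positive cells were sorted from dissected articular cartilage (AC) and GP. *Lepr*-TdT mice of paired age carry the same reporter with a constitutive *Lepr*-cre, and their cells came from crushed whole bone after removal of CD45+, Ter119+ and CD31+ cells, a depletion that the *Grem1* sort did not include. A TdTomato label marks a cell in which Cre was active or that descends from one, not a cell that makes *Grem1* or *Lepr* now. The labels give neither the number of mice on a plate nor whether a *Grem1* plate holds AC cells, GP cells or both.

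There were 8 *Grem1*-lineage plates of 96 wells (plates 1, 2, 4, 5, 6, 7, 8 and 9) and 2 *Lepr*-lineage plates of 76 and 86 wells. A cell entered where 350 genes or more were detected, which left 684 *Grem1*-lineage and 160 *Lepr*-lineage cells. These cells summed to between 133289 and 179071 UMIs (unique molecular identifiers, each counting 1 captured transcript) per *Grem1* plate, and to 158749 and 145484 on the *Lepr* plates, of which 64310 and 59981 were of the 29183 genes listed in both tables. The 96 well barcodes are common to all 8 *Grem1* plates and include those of the *Lepr* plates, and 0 pairs of cells had identical counts. Of the marker lists for other cell types, 3 of 4 listed endothelial genes were at 0 in each *Grem1*-lineage group, and the marrow genes *Cxcl12* and *Adipoq*, found in nearly all *Lepr*-lineage cells, summed with the other 3 listed to at most 110.0 CPM on any plate of either *Grem1*-lineage group (CPM, a gene's UMIs scaled so that 10000 CPM make 1% of the UMIs of these 29183 genes).

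*Grem1*-lineage cells were divided by the transcripts that part the AC from the GP-like population. A cell with more UMIs of *Clu*, *Cilp* and *1500015O10Rik* together than of *Cnmd* (chondromodulin, an angiogenesis inhibitor of avascular cartilage) was called articular-like, and the other cells Cnmd-rich. This gave 414 articular-like and 270 Cnmd-rich cells, with 43 to 68 and 26 to 40 cells per plate. The cells of the boundary were few: 4 had equal counts, 14 had fewer than 10 UMIs of the 4 genes, and 14 lay within 10% of equality. Of these 14, 9 Cnmd-rich cells held 111 of that group's *Col10a1* UMIs and 5 articular-like cells held 1. *Col10a1* had no part in the division. Of the 7 genes of the articular list that could be tested, 7 were higher in articular-like cells and 0 lower, against 24.2% of all 1075 genes higher. For 3 of those, *Clu*, *Cilp* and *1500015O10Rik*, this was fixed in advance, because they made the division. The tested genes outside the division were *Abi3bp*, *Cilp2*, *Creb5* and *Gas1*.

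*Col10a1* lies on chromosome 10 of GRCm38 (mm10), from 34389981 to 34397085 on the plus strand, in 3 exons of 63, 169 and 2898 bases. It sits inside *Nt5dc1*, which runs on the other strand, and the exons of the 2 genes share 18 bases (34397068 to 34397085). *Nt5dc1* was counted 0 times in the 160 *Lepr*-lineage cells and was not analysed here in the *Grem1* lineage. Whether the counting used strand is not given in the sources used here. The coding sequence has 2040 bases, and its longest unbroken run of glycine-first codon triplets, the repeat that winds into the collagen triple helix, is 61 triplets long. The first 30 codons of that run are shown because this repeat makes the gene product a collagen, with the glycine codons in capitals (exon 3, chr10:34394928-34395017, GENCODE M21 transcript, GRCm38, plus strand).
Col10a1: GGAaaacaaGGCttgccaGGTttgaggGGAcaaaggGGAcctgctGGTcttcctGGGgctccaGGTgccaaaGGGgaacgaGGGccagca

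*Col10a1* was higher in articular-like than in Cnmd-rich cells on 7 of 8 plates. Over the summed cells, the articular-like level in CPM was 2876 on plate 1, 1308 on plate 2, 1923 on plate 4, 7653 on plate 5, 9799 on plate 6, 7628 on plate 7, 5931 on plate 8 and 6286 on plate 9. Plates 1, 2 and 4 were low and plates 5 to 9 high, with no plate between 2876 and 5931, and counting error was smaller than these gaps (95% exact Poisson intervals of 2474 to 3324 for plate 1 and 5338 to 6573 for plate 8). The Cnmd-rich level in CPM was 2762 on plate 1, 2922 on plate 2, 100.4 on plate 4, 2180 on plate 5, 864 on plate 6, 402 on plate 7, 1606 on plate 8 and 621 on plate 9. Here plates 1 and 2 were the highest, so the plates did not keep one order in both groups, and the 2 groups overlapped: on plate 2 the Cnmd-rich level was above the articular-like one. This order rested on few cells, which the Poisson intervals do not cover. On plate 1, 2 cells held 197 of 221 Cnmd-rich *Col10a1* UMIs, and on plate 2, 6 cells held 194 of 222. The other Cnmd-rich cells stood at 316 CPM on plate 1 and 436 CPM on plate 2.

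The mean level was 5426 ± 3063 CPM in articular-like and 1432 ± 1095 CPM in Cnmd-rich cells (SD, n = 8 plates each). These are raw levels. With library sizes scaled by the TMM method, as in the test, the means were 6407 and 1231 CPM. In sums per plate and group so scaled, with the plate as a block, the difference was 2.57 ± 0.54 on the log2 scale (edgeR, a 5.94-fold difference), with an adjusted p of 0.00141 over the 1075 genes tested. Of the genes tested, 46.8% were called at an adjusted p under 0.05 with 24.2% higher and 22.6% lower in articular-like cells, so a call in itself sets *Col10a1* apart from few genes. The log2 ratio of normalised levels on a single plate ran from -0.76 on plate 2 and 0.43 on plate 1 to 4.59 on plate 4 and 4.68 on plate 7. An exact sign-flip permutation test of the 8 log2 ratios gave a two-sided p of 0.0234, where the smallest p this design allows is 0.00781. Replicates are plates, and nothing in the labels says that plates came from separate mice, so the p-values measure the spread between plates.

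**Figure D1:**
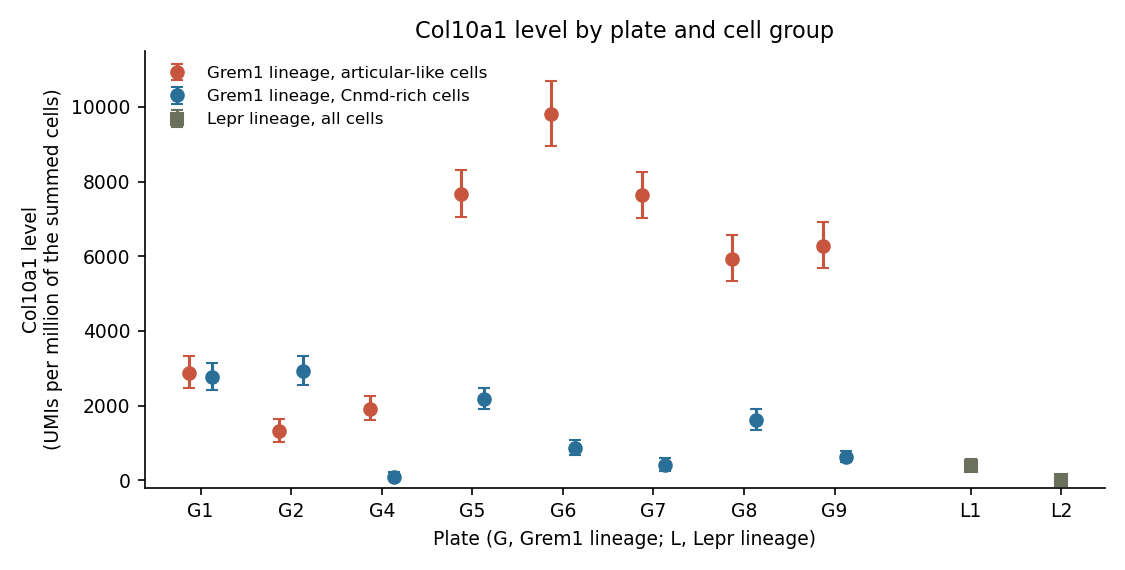
*Col10a1* in CPM of the summed cells (vertical axis) for each of the 8 *Grem1*-lineage plates (G), by cell group, and the 2 *Lepr*-lineage plates (L). Bars are 95% exact Poisson intervals and cover counting error only. Articular-like values on plates 5 to 9 lie between 5931 and 9799, and the Cnmd-rich value exceeds the articular-like one on plate 2 alone.

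The *Col10a1* of a group came from few cells. In articular-like cells, 176 of 414 held no *Col10a1* UMI, 120 held 1 to 3, 50 held 4 to 9 and 68 held 10 or more. The 68 cells carried 82.9% of the group's 2854 UMIs, and the highest held 144. In Cnmd-rich cells, 117 of 270 held none, 126 held 1 to 3, 13 held 4 to 9 and 14 held 10 or more. Those 14 cells carried 73.8% of the group's 969 UMIs, and 1 cell of plate 5 held 178. The threshold of 10 was set with the counts known, and 9 cells stood at 9 UMIs and 5 at 10.

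Such cells were found on all 8 plates in the articular-like group, with 6, 1, 6, 12, 16, 10, 9 and 8 cells on plates 1, 2, 4, 5, 6, 7, 8 and 9. In the Cnmd-rich group they were found on 5 plates, with 6 cells on plate 2, 2 each on plates 1, 5, 6 and 8, and none on plates 4, 7 and 9. On plate 1, 2 cells gave 197 of the 221 Cnmd-rich *Col10a1* UMIs, and on plate 5, 2 cells gave 189 of 228. The share of cells with 10 or more UMIs was 17.2% ± 10.7 per plate in articular-like and 5.04% ± 5.99 in Cnmd-rich cells (SD, n = 8 plates), higher in articular-like cells on 7 of 8 plates. The difference of 12.2 percentage points did not pass the exact sign-flip permutation test (two-sided p = 0.0547). This threshold does not allow for depth, and Cnmd-rich cells had more UMIs, 2219 against 1217 at the median.

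**Figure D2:**
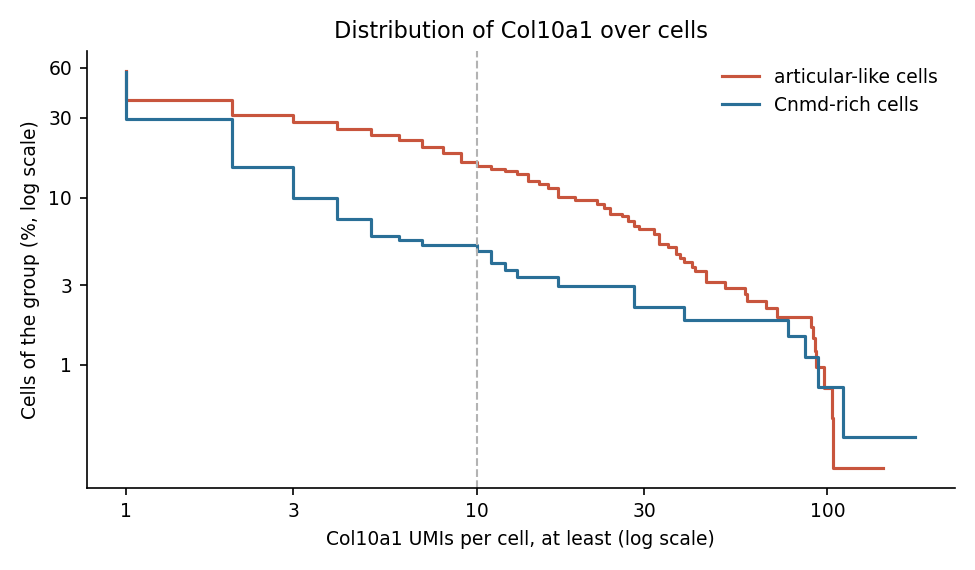
The share of cells (vertical axis, %, log scale) with at least the given number of *Col10a1* UMIs (horizontal axis, log scale) in 414 articular-like and 270 Cnmd-rich cells pooled over 8 plates. The curves start close together, at 57.5% and 56.7% with at least 1 UMI, and part to 16.4% and 5.19% at the dashed line of 10 UMIs.

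At least 1 *Col10a1* UMI was found in 57.5% of articular-like cells (95% exact binomial interval 52.6 to 62.3) and 56.7% of Cnmd-rich cells (50.5 to 62.7). These intervals pool the cells and leave out the spread between plates. Single plates ran from 29.4% to 81.4% in articular-like and from 19.2% to 73.0% in Cnmd-rich cells. The plate means were 59.1% and 55.3%, higher in articular-like cells on 4 of 8 plates (difference 3.81 percentage points, exact sign-flip permutation test, two-sided p = 0.383). Because depth differed, each cell was also set to 796 UMIs, which left out 60 articular-like and 8 Cnmd-rich shallower cells. The share with a *Col10a1* UMI was then 40.9%, 38.3%, 29.4%, 63.0%, 76.2%, 64.9%, 61.5% and 59.5% on articular-like plates 1, 2, 4, 5, 6, 7, 8 and 9. In Cnmd-rich cells it was 21.3%, 38.3%, 7.32%, 31.9%, 31.2%, 31.8%, 34.8% and 37.2%. The articular-like share was the higher on 8 of 8 plates, by 25 ± 12.9 percentage points (SD, n = 8; exact sign-flip permutation test, two-sided p = 0.00781, the smallest possible), although on plate 2 the shares were equal to 3 digits.

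**Figure D3:**
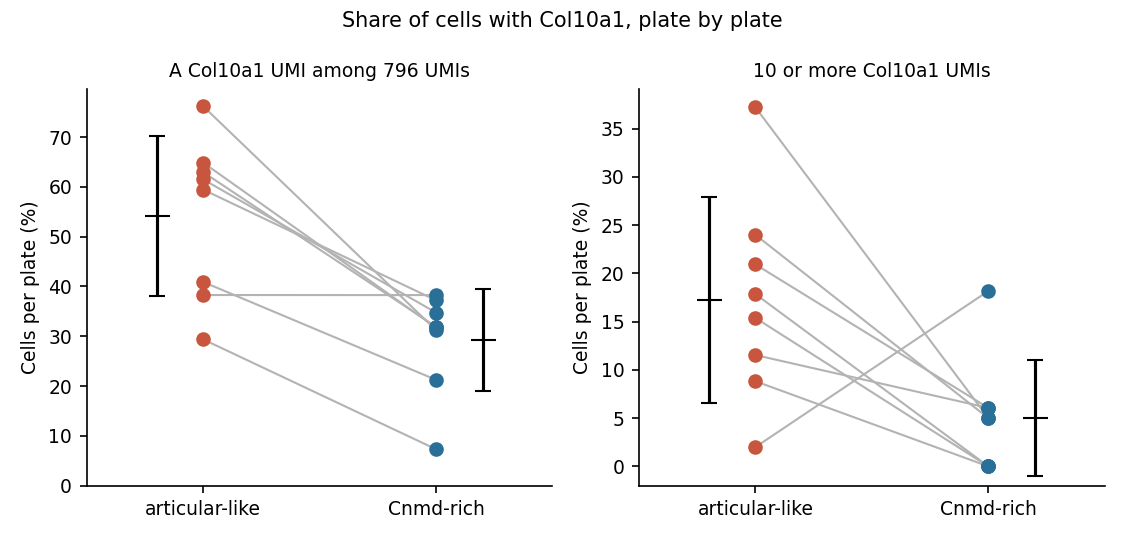
The share of cells per plate (vertical axes, %) in articular-like and Cnmd-rich cells, with lines joining the groups of a plate and bars for the mean ± SD over 8 plates. Left, a *Col10a1* UMI among 796 UMIs; right, 10 or more UMIs at full depth. At equal depth the articular-like share is nowhere the lower, and on the right 1 plate, plate 2, runs the other way.

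A single *Col10a1* UMI need not mean that the cell makes the transcript. As a yardstick, 13 *Grem1*-lineage cells with at least 10 UMIs of the blood cell markers *Camp*, *Cd74*, *Ctss* and *Elane* held 0 to 3 *Col10a1* UMIs, and 8 of the 13 held at least 1. At 796 UMIs the share was 25.1% in 12 of these cells (median depth of the 13, 3625 UMIs), 26.3% in Cnmd-rich cells with fewer than 10 *Col10a1* UMIs (median depth 2231) and 43.0% in articular-like cells with fewer than 10 (median depth 1147). The share in Cnmd-rich cells outside the 14 lay close to the yardstick. The 13 cells themselves belong to the groups compared, however, and are not known to lack *Col10a1*. The yardstick thus cannot tell whether 1 to 3 UMIs in a Cnmd-rich cell are expression, and they are not read as such. Their summed level was 409 CPM (95% interval 361 to 463) against 272 CPM in the blood marker cells (149 to 457), and it ran from 100.4 on plate 4 to 621 on plate 9, which is above the yardstick's interval. A limit of 10 UMIs stands for a higher CPM in the shallower articular-like cells, so the levels of cells with fewer than 10 UMIs are not compared between the groups.

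The lineages were compared next, to see how far *Col10a1* belongs to the *Grem1* label. On the 8 *Grem1* plates the level over all kept cells ran from 1129 CPM on plate 4 to 4580 on plate 7, with a median of 3167. On *Lepr* plate 1 it was 389 (95% interval 252 to 574), from 25 UMIs, and on *Lepr* plate 2 it was 0 of the 59981 UMIs of shared genes, where 3 UMIs would make 50.02 CPM. The groups did not overlap. The difference was 4.50 ± 0.88 on the log2 scale (edgeR, adjusted p = 0.00123 over 2944 genes, of which 28.9% were called, 16.7% higher and 12.2% lower in the *Grem1* lineage). With single plates left out it ran from 3.58 to 11.9, both ends being fits with a single *Lepr* plate, so its size is uncertain. The lowest *Grem1* plate was 2.91 times the level of *Lepr* plate 1, and 22.6 times the level that 3 UMIs would make on *Lepr* plate 2. That is not a lower bound, since the 95% exact Poisson interval of *Lepr* plate 2 reaches 61.5 CPM. Whole bone and dissected cartilage, the enzymes used and the depletion of blood and endothelial cells differ along with the lineage, and these cannot be told apart.

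On *Lepr* plate 1, 22 of the 25 UMIs were in 1 cell, and 3 other cells held 1 each. Among 160 *Lepr*-lineage cells, 4 had a *Col10a1* UMI (2.50%, 95% exact binomial interval of the pooled cells 0.685 to 6.28). On plate 2 it was 0 of 86 cells, which allows a share of up to 3.49% by the floor of 3 counts (upper limit of the 95% exact binomial interval, 4.20%). The cell with 22 UMIs had 2703 UMIs in all. It held 4 UMIs of *Acan*, the core protein of the cartilage proteoglycan aggrecan, against 1 in all other *Lepr*-lineage cells, and 8 of *Col2a1*, the main cartilage fibril collagen, against 9 in all others. It also held 11 UMIs of *Cilp* and 5 of *1500015O10Rik*, but 9 of *Cxcl12*, 6 of *Ibsp* and 7 of *Spp1*, which are found throughout the *Lepr* lineage. Without this cell the log2 difference of the lineages was 7.48 (adjusted p = 1.48e-05), a value added after the data were seen.

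Lists of related genes were read against the 16.7% of all 2944 genes that were higher and the 12.2% that were lower in the *Grem1* lineage, with a median of 0.11 on the log2 scale. Only 9 of the 18 hypertrophy genes were listed in the *Grem1*-lineage table. Those not analysed include *Spp1* and *Ibsp*, the latter also an osteoblast marker, which are found throughout the *Lepr* lineage. The counts of these lists thus cover a part of their members. Of 7 tested hypertrophy genes, 5 were higher in the *Grem1* lineage and 0 lower, led by *Ctgf* (4.47 ± 0.97, adjusted p = 0.00251) and *Gadd45b* (2.53 ± 0.53), with *Alpl* at 1.37 ± 0.45 (adjusted p = 0.0318). Of 8 tested regulators, 4 were higher: *Foxa3*, *Fosl2*, *Fos* and *Dlx5*. All 7 cartilage fibril collagens (median 6.89) and 6 of 6 growth plate genes were higher, as were 7 of 9 articular genes, 6 of 10 mineralisation genes, 6 of 10 pericellular and other collagens and 4 of 6 maturation genes, while 1 maturation gene was lower, the procollagen N-proteinase *Adamts2* (-4.97 ± 0.68, adjusted p = 5.50e-05). Of 8 tested collagen VIII chains and C1q-domain relatives, 3 were higher (*C1qtnf3*, *C1qtnf4* and *Emilin1*, the first pair at 0 on both *Lepr* plates) and 3 lower (*Col8a1*, *Cbln1* and *Adipoq*). *Col8a1*, a chain of the collagen VIII network of vessels and other tissues, had a difference of -4.31 ± 0.58 (adjusted p = 4.84e-05), at 21 UMIs in 684 cells against 63 in 160, and *Col8a2* one of 1.41 ± 0.67 without a call (adjusted p = 0.127). *Col4a1* and *Col4a2*, the network chains of basement membranes, were lower too (-6.10 ± 0.54 and -3.66 ± 0.67). Of the other lists, 5 of 5 marrow stromal genes and 1 of 4 blood cell genes (*Camp*) were lower, 1 of 6 osteoblast genes (*Alpl*) was higher, 0 of 2 collagen receptors and 0 of 1 erythroid gene were called, and 0 endothelial genes could be tested.

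Of the 18 genes of the hypertrophy list, 6 could be tested (*Col10a1* is not on it), 3 were higher and 2 lower in articular-like cells (median log2 difference 0.30, against 0.01 over all 1075 genes). With 24.2% of all genes higher and 22.6% lower, counts this small are not read as a result about this list. The same holds for the regulators, pericellular and other collagens, C1q-domain relatives, and maturation, mineralisation, growth plate and osteoblast genes described next. Higher were the cell cycle inhibitor *Cdkn1a* (1.25 ± 0.19, adjusted p = 8.01e-05, on 8 of 8 plates), the matricellular growth factor gene *Ctgf* (1.27 ± 0.16, adjusted p = 1.35e-05) and the FGF receptor *Fgfr1* (0.58 ± 0.16, adjusted p = 0.00884). Lower were *Alpl*, the phosphatase that frees phosphate for mineral (-1.05 ± 0.22, adjusted p = 0.00155), and the cell cycle inhibitor *Cdkn1c* (-1.50 ± 0.23, adjusted p = 9.79e-05). *Gadd45b*, a stress-inducible cofactor, had a difference of 0.03 and was not called. *Alpl* went against *Col10a1* in level: it was 244 ± 118 CPM in articular-like and 508 ± 193 CPM in Cnmd-rich cells (normalised CPM, with library sizes scaled by the TMM method; SD, n = 8), lower in articular-like cells on 7 of 8 plates. *Dmp1* had 65 UMIs in 12 *Grem1*-lineage cells and *Bmp6* had 14, too few to test, and the later symbols of the list, among them *Ibsp*, *Ihh*, *Mmp13*, *Runx2*, *Spp1* and *Vegfa*, were not analysed here in the *Grem1* lineage.

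Of the regulators of *Col10a1* transcription, 5 of 16 could be tested, 2 were higher and 0 lower. The bZIP factor *Cebpb* was 2221 ± 395 CPM in articular-like and 633 ± 273 CPM in Cnmd-rich cells (log2 difference 1.89 ± 0.18, adjusted p = 6.66e-07) and the groups did not overlap, with the lowest articular-like plate at 1656 and the highest Cnmd-rich plate at 984 CPM. The homeobox factor *Dlx5*, which acts with RUNX2 in skeletal cells, differed by 1.09 ± 0.27 (adjusted p = 0.00486) at a low level of 215 against 96.5 CPM. The AP-1 members *Fos* (-0.40, adjusted p = 0.0575) and *Fosl2* (0.25, adjusted p = 0.373) and the forkhead factor *Foxc1* (-0.38, adjusted p = 0.264) were not called. *Foxa2* and *Foxa3*, forkhead factors of hypertrophic chondrocytes, had 34 and 147 UMIs in all and were not tested. *Runx2*, *Runx3* and *Mef2c* were not analysed here in the *Grem1* lineage.

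Among collagens, *Col10a1* ran opposite to the fibril collagens of cartilage in this comparison of the 2 groups. All 7 of these genes were tested and all 7 were lower in articular-like cells (median log2 difference -1.83), against 22.6% of all genes. Within articular-like cells, 0 of the 7 were called with *Col10a1* in either direction, as described below. The smallest difference was that of *Col11a1* (-1.23 ± 0.12) and the greatest that of *Col9a1* (-2.51 ± 0.21, adjusted p = 1.40e-07). *Col2a1* was 16333 ± 5328 CPM in articular-like and 61772 ± 9912 CPM in Cnmd-rich cells (log2 difference -1.96 ± 0.14, adjusted p = 4.50e-08). Of the pericellular and other collagens, 6 of 12 were tested. *Col5a2*, a fibril-nucleating chain of soft connective tissue, was higher (2.53 ± 0.27), while *Col12a1*, which decorates fibril surfaces (-2.44 ± 0.27), and *Col6a3* of the pericellular beaded filaments (-0.68 ± 0.16) were lower. *Col6a1*, *Col6a2* and *Col16a1* were not called.

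The closest relatives of collagen X are the chains of collagen VIII and other proteins with its C1q-like trimerising head. Of 18 such genes, 17 were listed in the *Grem1*-lineage table. Only 2 could be tested, both lower in articular-like cells, against 22.6% of all genes. These were C1qtnf3, a secreted C1q and TNF-related protein of the growth plate (-3.35 ± 0.25, adjusted p = 4.71e-08), and the elastic fibre protein *Emilin1* (-0.96 ± 0.24, adjusted p = 0.00467). *Col8a2* had 127 UMIs in 99 *Grem1*-lineage cells and *Col8a1* had 21 UMIs in 17, against the 3823 UMIs of *Col10a1* in 391 cells. UMIs count transcripts whatever their length, but how efficiently each is captured was not measured. Of the collagen maturation list, 4 of 14 genes were tested and 2 were lower, the prolyl 3-hydroxylase complex member *Crtap* (-0.73 ± 0.23, adjusted p = 0.0191) and the collagen chaperone *Fkbp10* (-0.74 ± 0.14, adjusted p = 6.54e-04). The collagen receptors *Ddr1* and *Ddr2* had 74 and 142 UMIs and were not tested.

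Of the mineralisation list, 9 of 14 genes were tested, 2 were higher and 1, *Alpl*, was lower. The 2 higher genes act on pyrophosphate, the inhibitor of mineral growth: *Ank*, which exports it or its precursor (2.58 ± 0.31, adjusted p = 7.73e-06), and *Enpp1*, which makes it (1.41 ± 0.16, adjusted p = 3.64e-06), each on 8 of 8 plates. The annexins *Anxa2*, *Anxa5* and *Anxa6*, the kinase *Fam20c* and the osteocalcin genes *Bglap* and *Bglap2* were not called. The growth plate list gave 6 of 10 tested genes, with *Cnmd*, which made the division, *Epyc* (epiphycan, a small proteoglycan of growth plate cartilage; -4.04 ± 0.33) and C1qtnf3 lower and the matrix genes *Chad* (1.90 ± 0.15) and *Comp* (0.62 ± 0.13) higher. *Fgfr3* was not called. Osteoblast markers, of which 5 of 8 were tested and 1, *Alpl*, was lower, summed to a plate median of 2677 CPM in articular-like (1033 to 48817) and 3811 CPM in Cnmd-rich cells (920.0 to 21056), and 0 of the 6 listed genes were at 0. Without the cells that held over 5 UMIs of *Alpl*, *Bglap*, *Bglap2*, *Col1a1* and *Dmp1* together, *Col10a1* differed by 3.10 (adjusted p = 1.07e-05, an alternative chosen after the data were seen). The 4 listed blood cell markers summed to a plate median of 209 CPM in articular-like (0 to 4243) and 532 CPM in Cnmd-rich cells (10.9 to 4375), and their part in the result was not tested.

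To find genes that follow *Col10a1* within a group, the cells of each group and plate were parted at the plate's median *Col10a1* share of UMIs into *Col10a1*-upper and *Col10a1*-lower cells, and the sums were compared with the plate as a block. In articular-like cells, 186 *Col10a1*-upper cells held 2784 *Col10a1* UMIs and 228 *Col10a1*-lower cells held 70, over 8 plates. On plates 1, 2 and 4 the lower cells held 0, so any *Col10a1* UMI made a cell *Col10a1*-upper there. Plate 2 had only 1 articular-like cell with 10 or more UMIs. *Col10a1* itself made this split and was left out of the test. Of 395 genes tested, 17 were called (4.3%), 13 higher (3.29%) and 4 lower (1.01%) in *Col10a1*-upper cells. Without the plate as a block 7 genes were called. Median depth was slightly greater in *Col10a1*-upper cells, 1191 to 1506 UMIs per cell by plate against 1024 to 1241. When cells were first set to equal depth, 161 genes could be tested and 17 were called, among them all 14 of the 17 that were still testable.

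The genes higher with *Col10a1* in articular-like cells were led by *Alox12*, a lipoxygenase that oxidises arachidonic acid. Its level was 583, 473, 340, 1380, 435, 384, 477 and 616 normalised CPM in the *Col10a1*-upper cells of plates 1, 2, 4, 5, 6, 7, 8 and 9, and 127, 0, 84.0, 131, 117, 175, 32.5 and 31.2 CPM in the *Col10a1*-lower cells. Upper and lower cells did not overlap, and the log2 difference was 2.65 ± 0.33 (edgeR, adjusted p = 9.25e-05). *Fxyd3*, a small subunit that modulates the sodium pump, was 750 ± 349 CPM in *Col10a1*-upper and 197 ± 153 CPM in *Col10a1*-lower cells (SD, n = 8; 1.95 ± 0.29, adjusted p = 3.29e-04), and F13a1, the A chain of the cross-linking enzyme factor XIII, 485 ± 260 against 138 ± 123 CPM (1.77 ± 0.34, adjusted p = 0.00377). F13a1 was level on 2 plates, at 408 against 394 CPM on plate 5 and 67.5 against 60.8 on plate 2. Each of these 3 genes was higher on 8 of 8 plates.

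*Fn1*, the gene of fibronectin, a cell-adhesive matrix protein, was 4078, 1655, 5256, 9753, 10745, 10157, 11822 and 12622 CPM in the *Col10a1*-upper cells of plates 1, 2, 4, 5, 6, 7, 8 and 9. In the *Col10a1*-lower cells it was 1782, 2309, 1662, 3019, 2933, 2685, 2857 and 3466 CPM. It was higher with *Col10a1* on 7 plates and lower on plate 2 (1.52 ± 0.21, adjusted p = 2.73e-04). The order of plates was also that of *Col10a1* in part, with the lowest *Col10a1*-upper value on plate 2, the plate with the lowest articular-like *Col10a1*. The monocyte coreceptor gene *Cd14* (1.28 ± 0.21), the surface glycoprotein gene *Cd200* (1.11 ± 0.17), the membrane-binding annexin *Anxa8* (0.93 ± 0.19) and the secreted protease inhibitor *Cst3*, cystatin C (0.81 ± 0.15), followed, each on 8 of 8 plates. The other 5 higher genes were *Btg2*, *Acan*, *Cdkn1a*, *1500015O10Rik* and *Fos*, with log2 differences of 0.80, 0.74, 0.72, 0.63 and 0.54. *1500015O10Rik* is among the transcripts that made the division, so it stays in the count of genes called but is not read as a follower.

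*Fmod* (fibromodulin, a small proteoglycan that regulates fibril assembly) was lower with *Col10a1* on 8 of 8 plates. It was 2365, 4120, 3819, 1537, 479, 2278, 1101 and 1693 CPM in the *Col10a1*-upper and 5016, 6199, 4617, 3492, 4302, 2393, 2792 and 3216 CPM in the *Col10a1*-lower cells of plates 1, 2, 4, 5, 6, 7, 8 and 9. The log2 difference was -0.98 ± 0.23 (adjusted p = 0.0143). Plate 6, with the most *Col10a1*, had the greatest ratio, and on plate 7 they were nearly level. Biglycan, *Bgn* (-0.60 ± 0.16, adjusted p = 0.0338), another small proteoglycan, and the G1 cyclin *Ccnd2* (-0.83 ± 0.20, adjusted p = 0.0189) were lower on 7 of 8 plates, plate 2 being the exception for both. The call was lost in 12 of 18 alternatives for *Bgn* and in 7 of 18 for *Ccnd2*.

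*Col1a2*, a chain of collagen I, the fibril collagen of bone and fibrous tissue, had a log2 difference of -1.88 ± 0.45 (adjusted p = 0.0164). *Col10a1*-lower cells reached 12313 CPM on plate 5 and 34233 CPM on plate 7 and stood between 844 and 2775 CPM on the others, so plates 5 and 7 stood apart, and on plate 2 the direction was the other way. The osteoblast markers, which include *Col1a2*, moved with it, with a plate median of 3399 CPM in *Col10a1*-lower (1240 to 96783) and 2244 CPM in *Col10a1*-upper cells (465 to 8078). Without the cells rich in such transcripts *Col1a2* had a difference of -0.79 and was no longer called (adjusted p = 0.0631), nor was *Bgn* (-0.56, adjusted p = 0.0631), while *Fmod* (-1.02), *Ccnd2* (-0.82) and all 12 higher genes that could still be tested were called.

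**Figure D4:**
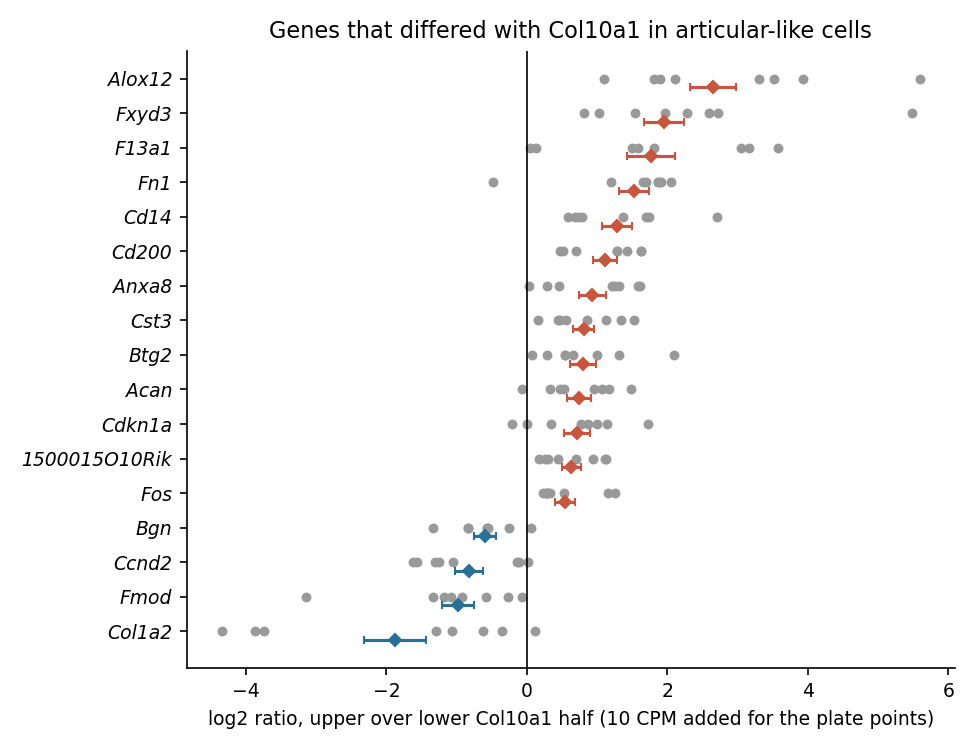
Log2 ratio of *Col10a1*-upper over *Col10a1*-lower cells in the articular-like group (horizontal axis) for the 17 genes called. Grey points are the 8 plates, with 10 CPM added to each value, and diamonds with bars are edgeR's log2 difference ± SE. The points of *Alox12* and *Fxyd3* all lie above 0 and those of *Fmod* all below it.

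The lists of related genes gave few followers. In articular-like cells 1 of 4 tested hypertrophy genes (*Cdkn1a*) and 1 of 3 tested regulators (*Fos*) were higher, and 0 of 7 cartilage fibril collagens, 0 of 4 other collagens and 0 of 4 mineralisation genes were called, against 4.3% of all genes. The call of *Cdkn1a* was lost in 10 of 18 alternatives and that of *Fos* in 8 of 17. The nearest of these to the threshold was *Enpp1*, with a difference of 0.59 ± 0.18 on 8 of 8 plates (adjusted p = 0.0812). Of the 7 articular genes tested, 1 was higher, *1500015O10Rik*, and *Clu* had a difference of -0.11 and *Cilp* of 0.49 without a call. These named genes took part in the division of the cells, so their values are not read as a finding. None of the C1q-domain relatives or maturation genes had the counts to be tested.

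The rank correlation with the *Col10a1* share across cells, averaged over the 8 plates, described the same order in articular-like cells. Among 633 genes found in at least 20% of the cells, it was highest for *Fxyd3* (0.41, on each plate between 0.23 and 0.62), *Cst3* (0.40), *Fn1* (0.38), *Acan* (0.33) and *Cd200* (0.25). It was lowest for *Fmod* (-0.38, between -0.58 and -0.22), *Bgn* (-0.28), *Comp* (-0.26), *Col2a1* (-0.25) and *Col1a2* (-0.23). Cells of a plate share library and depth, and the split and these correlations use the same cells, so the 2 descriptions are not independent. *Col2a1* thus fell in rank with *Col10a1* in articular-like cells, yet its summed level differed between *Col10a1*-upper and *Col10a1*-lower cells by only -0.12 (adjusted p = 0.668).

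Some of these genes also varied among plates as *Col10a1* did. The articular-like level of *Fxyd3* was 159, 235, 268, 789, 698, 606, 559 and 770 normalised CPM on plates 1, 2, 4, 5, 6, 7, 8 and 9, and that of *Fmod* 4218, 5892, 5034, 2871, 2914, 2701, 2094 and 2896 CPM. The 3 plates lowest in *Col10a1* were the 3 lowest in *Fxyd3* and the 3 highest in *Fmod*. *Clu* was likewise highest on those plates (20216, 26841 and 26696 CPM, against 11551 to 17723 CPM on the others), and *Clu* is one of the transcripts that made the division. No label separates plates 1, 2 and 4 from the rest, so this is a description without a test.

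In Cnmd-rich cells no gene followed *Col10a1* past the threshold. The split could be tested on 7 plates, since on plate 4 only 5 cells held a *Col10a1* UMI, and 0 of 647 genes were called by edgeR (0%), with 24 genes at an unadjusted p under 0.05 and a smallest adjusted p of 0.275. DESeq2 also called 0. *Cd200* had a difference of 1.07 ± 0.40 and F13a1 of 0.80 ± 0.41, and *Fn1* of -0.05 ± 0.15 (edgeR, adjusted p of 0.964, 0.964 and 0.969). The average rank correlations lay between -0.21 and 0.21 over 1406 genes, which in counts this sparse is no finding. Of the 270 Cnmd-rich cells, 126 held 1 to 3 *Col10a1* UMIs and 117 none.

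Whether following differed between the groups was tested as an interaction on the 7 plates shared. Of 690 genes, 1 was called (0.145%), *Fn1*, whose difference between *Col10a1*-upper and *Col10a1*-lower cells was greater in articular-like cells by 1.69 ± 0.34 on the log2 scale (edgeR, adjusted p = 0.0314). For *Alox12* the interaction was 2.22 ± 0.90, for *Fxyd3* 1.30 ± 0.49, for *Fmod* -0.87 ± 0.31 and for *Col1a2* -3.12 ± 0.90, none of which passed (adjusted p of 0.500, 0.500, 0.500 and 0.280). Apart from *Fn1*, the data thus do not show a difference in following between the groups. The *Fn1* result is bound to this split, which in Cnmd-rich cells mostly set cells without a *Col10a1* UMI against cells with few. In the 14 Cnmd-rich cells with the most *Col10a1* UMIs, pooled *Fn1* was 13575 CPM, against 7198 CPM in the other 256. It was higher there on 4 of 5 plates, a difference that was not tested. That *Fn1* follows *Col10a1* in articular-like cells alone is thus not shown.

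The cells with 10 or more *Col10a1* UMIs were then set against the others of their group. In articular-like cells, sums of at least 5 such cells were available on 7 plates, and a fit of this split, added after the data were seen, called 26 of 272 genes, 16 of them among the 17 above. It added *Ddit4l*, a stress-induced inhibitor of mTOR signalling (2.50 ± 0.44, adjusted p = 5.93e-04), the lysophospholipase *Enpp2* (0.94 ± 0.19) and *Chad* (0.69 ± 0.19) on the higher side, and *Col1a1* (-4.03 ± 0.46), *Comp* (-0.85 ± 0.21) and *Apoe* (-1.02 ± 0.31) on the lower. Over the pooled cells, without normalisation, *Fmod* was 531 CPM in the 68 cells and 3884 CPM in the other 346, and Col10a1-rich cells held a *Ddit4l* UMI in 35 of 68 cases, against 41 of 346 of the others. *Clu* was also lower there, at 10472 against 17869 CPM, and *Cilp* nearly level, at 12115 against 11279 CPM. These pooled values have no test.

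The 14 Cnmd-rich cells with 10 or more *Col10a1* UMIs are too few for a test, and genes named here were chosen after their values were seen. They held 1612 CPM of F13a1 against 152 CPM in the other 256 Cnmd-rich cells, 1178 against 105 of *Ddit4l*, 1457 against 242 of *Cd200* and 1798 against 310 of *Enpp2*, each higher on all 5 plates except *Ddit4l* on 4. These 4 genes were thus also higher in the Col10a1-rich cells of the articular-like group. Of the members of the hypertrophy list with at least 10 UMIs in Cnmd-rich cells, 6 lay above the other cells in CPM and 1 below. Of the mineralisation list 7 lay above and 3 below. *Dmp1*, above in both lists, had its 9 UMIs in 1 of the 14 cells. No share over all genes is given beside these counts, so they are not read as a result about the lists. Above were *Alpl* at 2169 against 518 CPM (in 9 of 14 cells), *Cdkn1c* at 3595 against 643 (higher on 3 of 5 plates), *Cdkn1a* at 3502 against 971, *Enpp1* at 1116 against 263, and *Fam20c*, a kinase of secreted matrix proteins, at 1054 against 142. Below were *Gadd45b* at 341 against 853 CPM, *Bglap2* at 186 against 871, *Anxa5* at 1488 against 1630 and *Bglap* at 2324 against 2436. In the articular-like group *Alpl* stood instead at 164 CPM in the Col10a1-rich and 221 CPM in the other cells, and *Cdkn1c* at 155 against 228 CPM. The difference between groups in this was not tested.

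*Cnmd*, which made the division, was 13916 CPM in the same 14 cells against 26285 CPM in the others, and 2 of the 14 lay within 10% of the boundary between the groups. *Epyc* was 341 against 1195, C1qtnf3 248 against 1677 and *Bhlhe41*, a transcriptional repressor, 744 against 4567 CPM, each lower on all 5 plates. Pooled *Col2a1* was nearly level, at 68865 against 69234 CPM, but it was higher in the 14 cells on only 1 of 5 plates. Pooled *Acan* was 6539 against 6236 CPM and higher on 2 of 5 plates. Of the osteoblast markers, 4 lay above and 2 below, a count again without a share over all genes. *Col1a2* was 3254 against 1285 CPM and *Col1a1* 3750 against 1282 CPM, with 113 of the 121 *Col1a1* UMIs of these cells in 1 cell of plate 1. The 14 cells had a median depth of 1969 UMIs, against 2231 in the others.

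**Figure D5:**
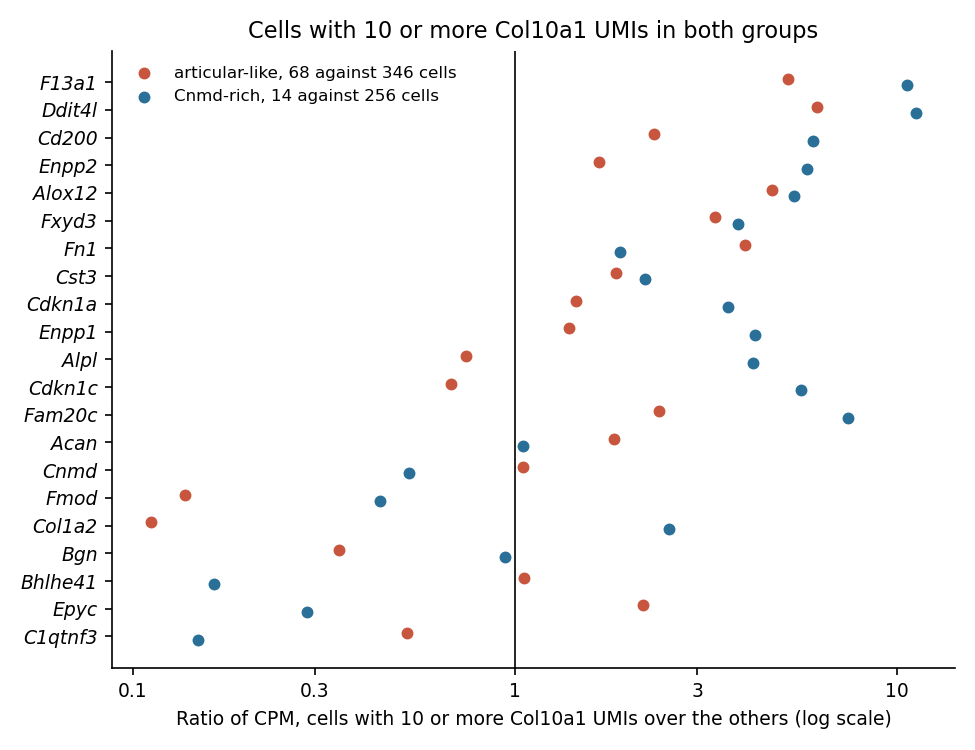
Ratio of pooled CPM in cells with 10 or more *Col10a1* UMIs over the other cells of the group (horizontal axis, log scale) for 21 genes, in articular-like and Cnmd-rich cells. F13a1, *Ddit4l*, *Cd200* and *Enpp2* lie above 1 in both groups, while *Alpl* and *Cdkn1c* lie above 1 in Cnmd-rich and below 1 in articular-like cells.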

How the data were processed

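The deposited values are counts of UMIs for each gene in each cell, whole numbers that the authors did not normalise. The submitters' processing notes name UMI-tools, STAR, featureCounts, SAMtools and Seurat with mm10. The *Grem1*-lineage table was read to its last complete row, and 1 incomplete row was left out. It lists symbols up to *Gm5763*, and later symbols were not analysed here, so CPM of both lineages cover these genes alone. The question, the cell groups and the gene lists were chosen with earlier results of these data known.

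Cells were added up within each plate and group (10 cells or more) and tested with edgeR 4.0.16 in R 4.3.3 (filterByExpr, TMM scaling, glmQLFit and glmQLFTest, with p-values adjusted by Benjamini and Hochberg over all genes tested, threshold 0.05), with DESeq2 1.42.0 as an alternative. Errors of edgeR values are approximate SEs. *Col10a1* itself was left out when genes that follow it were sought. Plate was a block, since articular-like and Cnmd-rich sums of the same plate deviate together: the correlation of their deviations across genes was 0.293 on average (0.176 to 0.443, over 0.1 on 8 of 8 plates), against -0.0418 for different plates. *Col10a1* levels in CPM by plate are raw counts over the UMIs of these genes, and normalised CPM use TMM library sizes. Shares at 796 UMIs, the 10th percentile of depth, are exact expectations of drawing UMIs without replacement. Intervals (95%, exact Poisson or Clopper-Pearson) and the floor of 3 counts cover counting error only. Named genes were *Col10a1*, list members, and in articular-like cells the 8 called genes with the largest change in each direction among those averaging 100 CPM or more with 1 direction on 7 plates, and the 5 highest and 5 lowest correlations. No doublet caller was run, since each well was sorted to hold 1 cell. Symbols were matched to GENCODE M21 on GRCm38 (97.2% of the *Grem1*-lineage table). Simulated counts held 200 genes changed by a smaller or a larger known fold, with a fixed dispersion and no plate effect. Of the changed genes tested, 96.4% were recovered for the groups and 98.7% and 92.1% for the splits of articular-like and Cnmd-rich cells. It was 77.5% for the interaction and 49.3% for the lineages, where 9.64% of the calls were false. Of all changed genes, 81% were recovered for the groups at either fold. At the smaller and the larger fold it was 80% and 73% for the articular-like split and 73% and 79% for the Cnmd-rich split. For the interaction it was 53% and 92%, and for the lineages 12% and 63%. These shares do not measure power in the real data.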

Additional observations from a re-analysis of the deposited data

Results flagged for a closer look

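The following values stood apart by a Dixon test over 8 plates, of which 47 were made and 5 passed; chance alone passes about 1 in 20. Among Cnmd-rich plates, the share of cells with 10 or more *Col10a1* UMIs was 18.2% on plate 2, against 6.06% on the next, and the share with any *Col10a1* UMI was 19.2% on plate 4, against 48.5% on the next. In articular-like cells, *Alox12* in *Col10a1*-upper cells reached 1380 CPM on plate 5, *Bgn* in *Col10a1*-upper cells 2026 CPM on plate 2, and *Col1a2* in *Col10a1*-lower cells 34233 CPM on plate 7.

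*Fn1* differed between *Col10a1*-upper and *Col10a1*-lower cells by 1.69 more (log2) in articular-like than in Cnmd-rich cells by the interaction in edgeR (adjusted p = 0.0314), and it was the 1 gene of 690 called.

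The 84 *Grem1*-lineage wells left out for fewer than 350 detected genes held 200 *Col10a1* UMIs, 5025 CPM, in 29 wells. In 4 of these wells there were 10 or more, 166 UMIs together, and 1 well of plate 2 held 77. No comparison uses these wells, except the alternative without a minimum of detected genes.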

How the results depend on the processing

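*Col10a1* stayed higher in articular-like than in Cnmd-rich cells and past the threshold under all 18 alternatives run, at log2 differences of 2.21 to 3.10 (adjusted p at most 0.00702), and between 2.21 and 3.01 when single plates were left out. Without the replicate block the value was 2.37 (adjusted p = 0.00144). The difference of the lineages was called under all 17 alternatives, at 3.58 to 11.9. The highest value, without *Lepr* plate 1, sets 8 plates against a single plate at 0 and depends on the prior count, and without *Lepr* plate 2 it was 3.58. With the plate numbers 1 and 2 as a replicate block it was 4.49 (adjusted p = 0.00102), where the lineages share only a number.

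The difference in the share of cells with a *Col10a1* UMI was 22.1 to 28.5 percentage points with each plate left out, but 3.81 without setting cells to equal depth (exact permutation p = 0.383). The 17 genes that follow *Col10a1* in articular-like cells became 7 without the replicate block, all among the 17, and 38 of 10418 without a filter on low counts. They became 11 with the most abundant genes left out, where only 12 of the 17 could be tested, and 26 with the split at 10 UMIs. Both of these alternatives were added later. With each plate left out the count was 11 to 20, 11 without plate 6. Each of the 17 kept its direction in every alternative in which it was tested. Of 293 such values, 50 lost the call, most often those of *Bgn* (12), *Cdkn1a* (10), *Fos* (8), *Ccnd2* (7) and *Col1a2* (6). *Alox12*, *Fxyd3*, F13a1, *Fn1*, *Cd14*, *Cd200* and *Cst3* lost none. In Cnmd-rich cells the count of 0 became 13 without a filter on low counts, and 0 to 1 with each plate left out, 1 without plate 1. The causes were not tested.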
